A study of Mus musculus with 4 samples.

Results

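The matrix metalloproteinases (MMPs), the ADAMTS proteases and the tissue inhibitors of metalloproteinases (TIMPs) were followed in KPC pancreatic tumors after treatments directed at cancer-associated fibroblasts (CAFs). The members were all gene symbols of the Mmp, Adamts and Timp families in which a number follows the family name, and the related Adamtsl genes were not taken. This gave 45 of the 32285 genes measured, of which 22 were MMPs, 19 were ADAMTS proteases and 4 were TIMPs. UMIs (unique molecular identifiers, each standing for 1 captured RNA molecule) of all 45 were found in at least 1 library. MMPs are zinc endopeptidases that cut collagens, elastin, basement membrane and many cell surface proteins, and most are made as inactive proenzymes. ADAMTS proteases are secreted relatives that trim procollagens, cleave large proteoglycans such as versican and aggrecan, or bind to fibrillin microfibrils. TIMPs bind the active sites of these enzymes and so limit matrix turnover in tumor stroma.

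Droplet scRNA-seq libraries were made from 4 pools of tumor cells, 1 per condition. KPC cells, a line from a genetic mouse model of pancreatic cancer that uses Pdx1-Cre, were grafted into the pancreas of male mice made obese by 24 weeks of high-fat diet. Pdgfrb-TK mice, which carry thymidine kinase under the Pdgfrb promoter on the C57BL/6 background, received ganciclovir (GCV), which kills cells with this kinase, at 50 mg/kg every other day (Pdgfrb-TK/GCV) or PBS (Pdgfrb-TK/PBS) over 25 days. C57BL/6 mice (C57BL/6J in the methods) received D-CAN, a peptide that homes to adipose stromal cells and carries an apoptosis-inducing sequence of D-amino acids, at 30 mg/kg every other day (D-CAN) or PBS (WT/PBS) over the same 25 days. The labels give an age of 7 months and the methods one of 12 months, and the protocol in the labels describes nuclei of another tissue, although 37.7% to 73.4% of the cells of a library carried the keratin and epithelial markers of KPC tumor cells. According to the methods the suspensions were pooled by treatment, while the labels name a mouse, and both agents also reach pericytes that express Pdgfrb. Collagenase and dispase were used to dissociate the tumors.

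GCV was set against PBS in Pdgfrb-TK mice, and D-CAN against PBS in WT mice. With 1 library per condition there is no replicate error and no test, so the intervals given are exact and cover counting error only. A gene was counted as higher or lower when the log2 ratio, with a pseudocount of 1 CPM (UMIs of a gene per 1000000 UMIs of the cell class), reached 1 in size. It had to have at least 20 UMIs in the 2 libraries together and 10 CPM in the higher one. The difference between both PBS libraries, whose mice differ in genotype, is given beside these comparisons because no replicate shows how far 2 libraries lie apart. The libraries held 10178 to 12280 cells after filtering, with 84000174 to 155382616 UMIs, and cells with more than 20% mitochondrial UMIs made up 4.48% to 29.3%, highest in D-CAN. Cell barcodes shared by 2 libraries numbered 26 to 42.

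Cells were assigned to 11 classes by marker genes, and UMIs were summed by class and library. In the order Pdgfrb-TK/PBS, Pdgfrb-TK/GCV, WT/PBS and D-CAN, there were 372, 216, 1661 and 1186 CAF-marker cells, 7687, 7239, 6422 and 3838 KPC tumor cells, and 405, 1565, 789 and 993 macrophage-marker cells. CPM are not divided by gene length and are compared between cells and libraries for 1 gene at a time. KPC tumor cells held 76256913 of 84000174 UMIs in Pdgfrb-TK/PBS and 101757154 of 127722502 in Pdgfrb-TK/GCV. They held 116821982 of 155382616 UMIs in WT/PBS and 96478854 of 129550586 in D-CAN. A large share of a gene's UMIs in KPC tumor cells therefore does not by itself make them its main source. Summed CAF markers reached 11132 to 27453 CPM in CAF-marker cells and 40.7 to 173 CPM in KPC tumor cells. Pdgfrb itself was at 245.7 CPM in the CAF-marker cells of Pdgfrb-TK/PBS and at 57.4 CPM in those of Pdgfrb-TK/GCV, and at 169.0 CPM in WT/PBS and 258.7 CPM in D-CAN. Fewer cells of a subtype and less RNA per cell cannot be told apart in these sums. Of the CAF-marker cells, 19.6%, 23.6%, 9.03% and 51.0% had inflammatory CAF (iCAF) markers as the leading list in that order of libraries, and 55.1%, 51.4%, 81.6% and 30.9% had myofibroblastic CAF (myCAF) markers. WT/PBS therefore stood apart as rich in myCAF-marker cells and D-CAN as rich in iCAF-marker cells, and the CAF results are given within these subsets too.

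Of the MMP genes, 9 form a row on chromosome 9 (mm10, chr9:7272514-7699585, a span of 427 kb) with no other protein-coding gene between them in GENCODE M21. The order is Mmp13, Mmp12, Mmp1b, Mmp3, Mmp10, Mmp8, Mmp27, Mmp20 and Mmp7, and Mmp1b lies on the minus strand and overlaps the end of Mmp12. The row holds Mmp3, Mmp10, Mmp12 and Mmp13, on which several comparisons below turn, so start regions of its genes are shown. AP-1, the dimer of FOS and JUN proteins, is a known regulator of several of these genes, and its motif TGAGTCA was searched on both strands in RefSeq promoters (build GRCm38.p6, 250 bases before to 50 after each start). A promoter was given for 31 of the 45 members, and 6 of their 34 promoters (17.6%) held the motif, against 1709 of 32851 promoters (5.20%) of all genes. All 6 belonged to the row on chromosome 9, namely Mmp13, the second annotated start of Mmp12, Mmp1b, Mmp3, Mmp10 and Mmp7. The last 100 bases before these starts are printed with the motif in capitals:
Mmp13: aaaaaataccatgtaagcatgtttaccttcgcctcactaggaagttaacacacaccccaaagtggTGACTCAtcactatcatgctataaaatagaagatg
Mmp12: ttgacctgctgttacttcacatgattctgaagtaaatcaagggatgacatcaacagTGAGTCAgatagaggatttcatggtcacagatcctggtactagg
Mmp1b: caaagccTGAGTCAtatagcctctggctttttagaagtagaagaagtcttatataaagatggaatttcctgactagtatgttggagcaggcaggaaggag
Mmp3: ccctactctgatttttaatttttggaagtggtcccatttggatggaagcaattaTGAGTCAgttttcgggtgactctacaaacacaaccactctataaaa
Mmp10: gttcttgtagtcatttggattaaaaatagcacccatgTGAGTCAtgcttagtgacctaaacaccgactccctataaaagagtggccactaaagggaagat
Mmp7: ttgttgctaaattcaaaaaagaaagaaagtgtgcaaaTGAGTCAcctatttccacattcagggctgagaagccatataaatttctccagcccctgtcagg
The stretches lie at chr9:7272414-7272513 for Mmp13, chr9:7347274-7347373 for Mmp12, chr9:7445722-7445821 for Mmp3, chr9:7502242-7502341 for Mmp10 and chr9:7691990-7692089 for Mmp7 on the plus strand, and at chr9:7388027-7388126 for Mmp1b on the minus strand. The motif of Mmp13 reads TGACTCA, the reverse complement. The motif began 35 bases before the start in Mmp13, 44 in Mmp12, 46 in Mmp3, 63 in Mmp10 and Mmp7, and 93 in Mmp1b. The promoter of Mmp8, those of Mmp27 and Mmp20, the first start of Mmp12 and the second start of Mmp7 did not contain these letters. A match is a string of letters and not a site that was shown to be bound.

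Neighbors in this row were found in different cells, as the plot of the chromosome 9 genes shows. In macrophage-marker cells, Mmp12, the macrophage elastase, had 644 CPM in Pdgfrb-TK/PBS, 731 in Pdgfrb-TK/GCV, 447 in WT/PBS and 742 in D-CAN, and the next class, neutrophil-like cells, had 9.98 to 336 CPM. Mmp3, a stromelysin that also activates other proenzymes, was highest in CAF-marker cells in all 4 libraries, at 80.5 CPM in Pdgfrb-TK/PBS, 37.0 in Pdgfrb-TK/GCV, 222 in WT/PBS and 531 in D-CAN. The stromelysin Mmp10, beside it, had 84.2% of its 12572 UMIs in KPC tumor cells, the largest class. Its level there was 14.8 CPM in Pdgfrb-TK/PBS, 53.4 in Pdgfrb-TK/GCV, 19.2 in WT/PBS and 18.5 in D-CAN. By level CAF-marker cells of WT/PBS were above its KPC tumor cells, at 47.3 CPM. Acinar-like cells had the highest mean of Mmp10 (69.1 CPM), on 18 UMIs. Mmp8, the collagenase of neutrophil granules, was highest in neutrophil-like cells in all 4 libraries, with 133 CPM in Pdgfrb-TK/PBS, 118 in Pdgfrb-TK/GCV, 85.7 in WT/PBS and 76.6 in D-CAN. The collagenase Mmp13 was spread over several classes, with 70 UMIs in pericyte-like cells (mean 46.5 CPM) and 165 UMIs in neutrophil-like cells. Its level in macrophage-marker cells was 86.1 CPM in Pdgfrb-TK/PBS, 123 in Pdgfrb-TK/GCV, 137 in WT/PBS and 179 in D-CAN, the highest of the classes in 3 of 4 libraries, while KPC tumor cells (7.44 to 33.7 CPM) and CAF-marker cells (8.29 to 122 CPM) overlapped each other in range. Mmp7, matrilysin, had 274 of its 355 UMIs in KPC tumor cells of D-CAN, where 13 cells held all of them and 1 cell held 89. Mmp1b, Mmp27 and Mmp20 had 28, 67 and 10 UMIs in all cells.

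**Figure D1:**
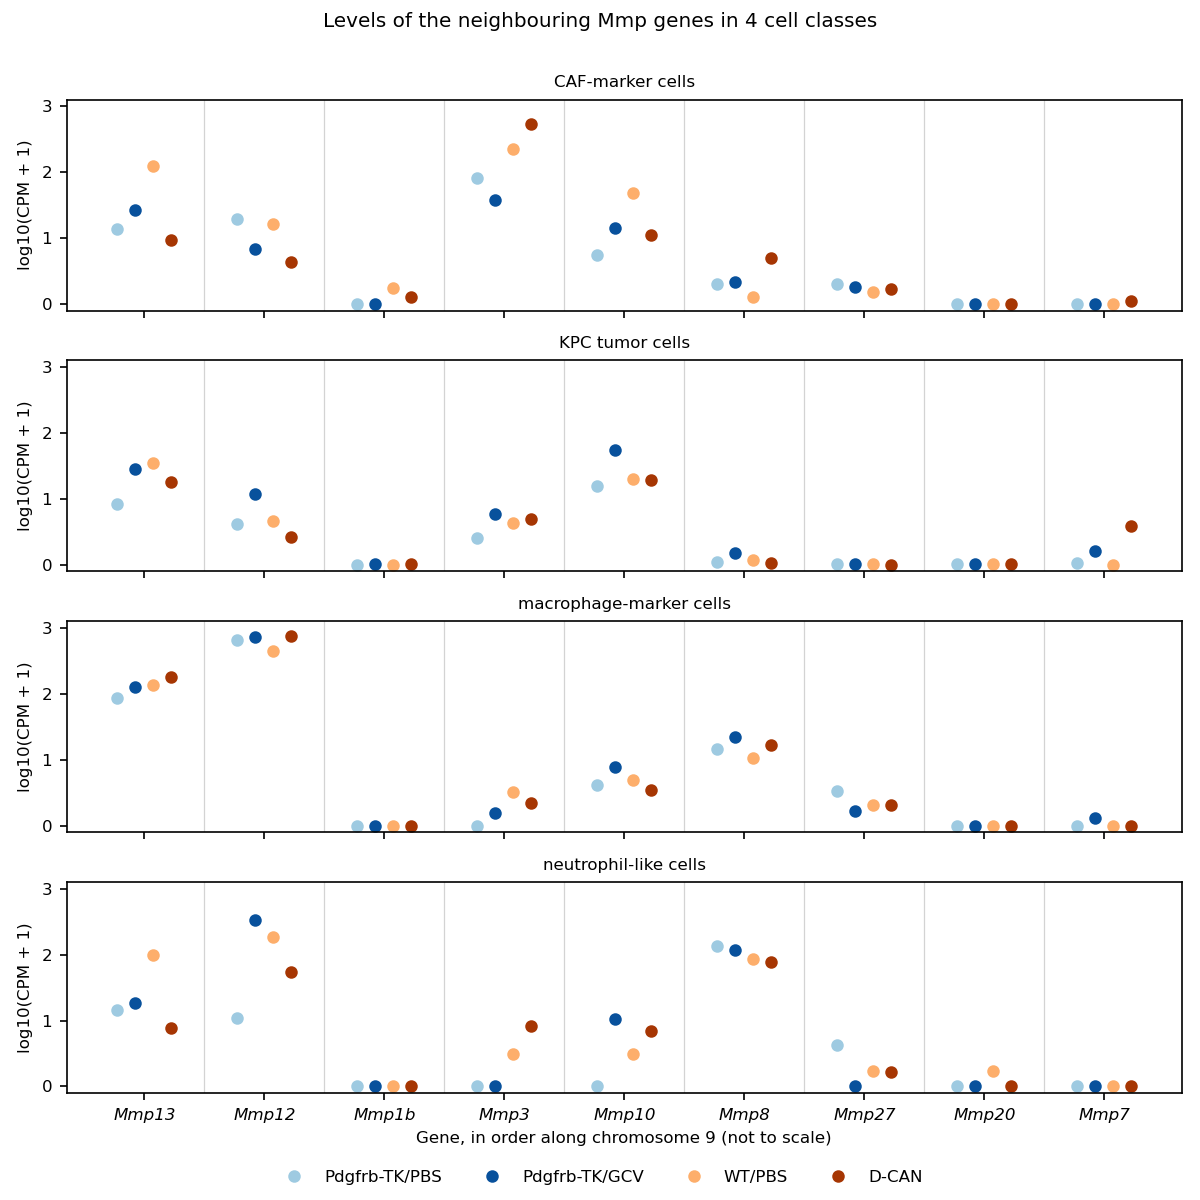
Levels, as log10(CPM + 1), of the 9 Mmp genes on chromosome 9 in genomic order, in 4 cell classes (panels). Each dot is 1 library. Mmp3, Mmp12 and Mmp8 have their highest dots in different panels, Mmp3 at 37.0 to 531 CPM in CAF-marker cells, Mmp12 at 447 to 742 CPM in macrophage-marker cells and Mmp8 at 76.6 to 133 CPM in neutrophil-like cells, while Mmp1b, Mmp27 and Mmp20 lay near 0.

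The gelatinases differed in their source. In CAF-marker cells, Mmp2, which cleaves denatured collagen and basement membrane collagen, was at 413 CPM in Pdgfrb-TK/PBS, 322 in Pdgfrb-TK/GCV, 601 in WT/PBS and 806 in D-CAN, and pericyte-like cells (148 to 511 CPM) overlapped that range. Mmp9, the other gelatinase, was highest in neutrophil-like cells in all 4 libraries, with 173 CPM in Pdgfrb-TK/PBS, 172 in Pdgfrb-TK/GCV, 114 in WT/PBS and 648 in D-CAN, and macrophage-marker cells had 1.91 to 137 CPM. The D-CAN library thus stood above the other 3 for Mmp9 in neutrophil-like cells.

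Among the membrane-bound MMPs, Mmp14 activates the Mmp2 proenzyme. Its level in CAF-marker cells was 866 CPM in Pdgfrb-TK/PBS, 465 in Pdgfrb-TK/GCV, 744 in WT/PBS and 613 in D-CAN, pericyte-like cells overlapped that range (409 to 873 CPM), and KPC tumor cells were lower at 151 to 209.8 CPM. Mmp15, another membrane-type enzyme, and Mmp28, the epilysin of epithelia, were mainly counted in tumor cells, which held 94.1% and 92.9% of their UMIs. By level Mmp15 was higher in EC-like cells (37.4 CPM in Pdgfrb-TK/PBS, 59.9 in Pdgfrb-TK/GCV, 24.8 in WT/PBS and 62.5 in D-CAN) than in KPC tumor cells (11.2 to 32.5 CPM), although these ranges overlapped. In KPC tumor cells Mmp28 had 20.9 CPM in Pdgfrb-TK/PBS, 9.59 in Pdgfrb-TK/GCV, 11.6 in WT/PBS and 16.8 in D-CAN. Mmp25, a leukocyte MMP with a lipid anchor, had 94 UMIs in the 11 to 80 dendritic-like cells of a library, where its level was 72.9 CPM in Pdgfrb-TK/PBS, 186 in Pdgfrb-TK/GCV, 174 in WT/PBS and 127 in D-CAN. In neutrophil-like cells it had 76.5 CPM in Pdgfrb-TK/PBS, 28.9 in Pdgfrb-TK/GCV, 43.2 in WT/PBS and 60.1 in D-CAN. Dendritic-like cells were above neutrophil-like cells in 3 of 4 libraries. Mmp23 and Mmp19 were not confined to a single class. In CAF-marker cells Mmp23 had 170.1 CPM in Pdgfrb-TK/PBS, 153 in Pdgfrb-TK/GCV, 116 in WT/PBS and 181 in D-CAN, with overlapping ranges in mesothelial-like cells (61.0 to 154 CPM) and pericyte-like cells (58.3 to 235 CPM). In macrophage-marker cells Mmp19 was at 54.8 CPM in Pdgfrb-TK/PBS, 71.5 in Pdgfrb-TK/GCV, 137 in WT/PBS and 93.7 in D-CAN, and CAF-marker cells (45.8 to 92.7 CPM) and mesothelial-like cells (80.2 to 97.5 CPM) overlapped that range.

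**Figure D2:**
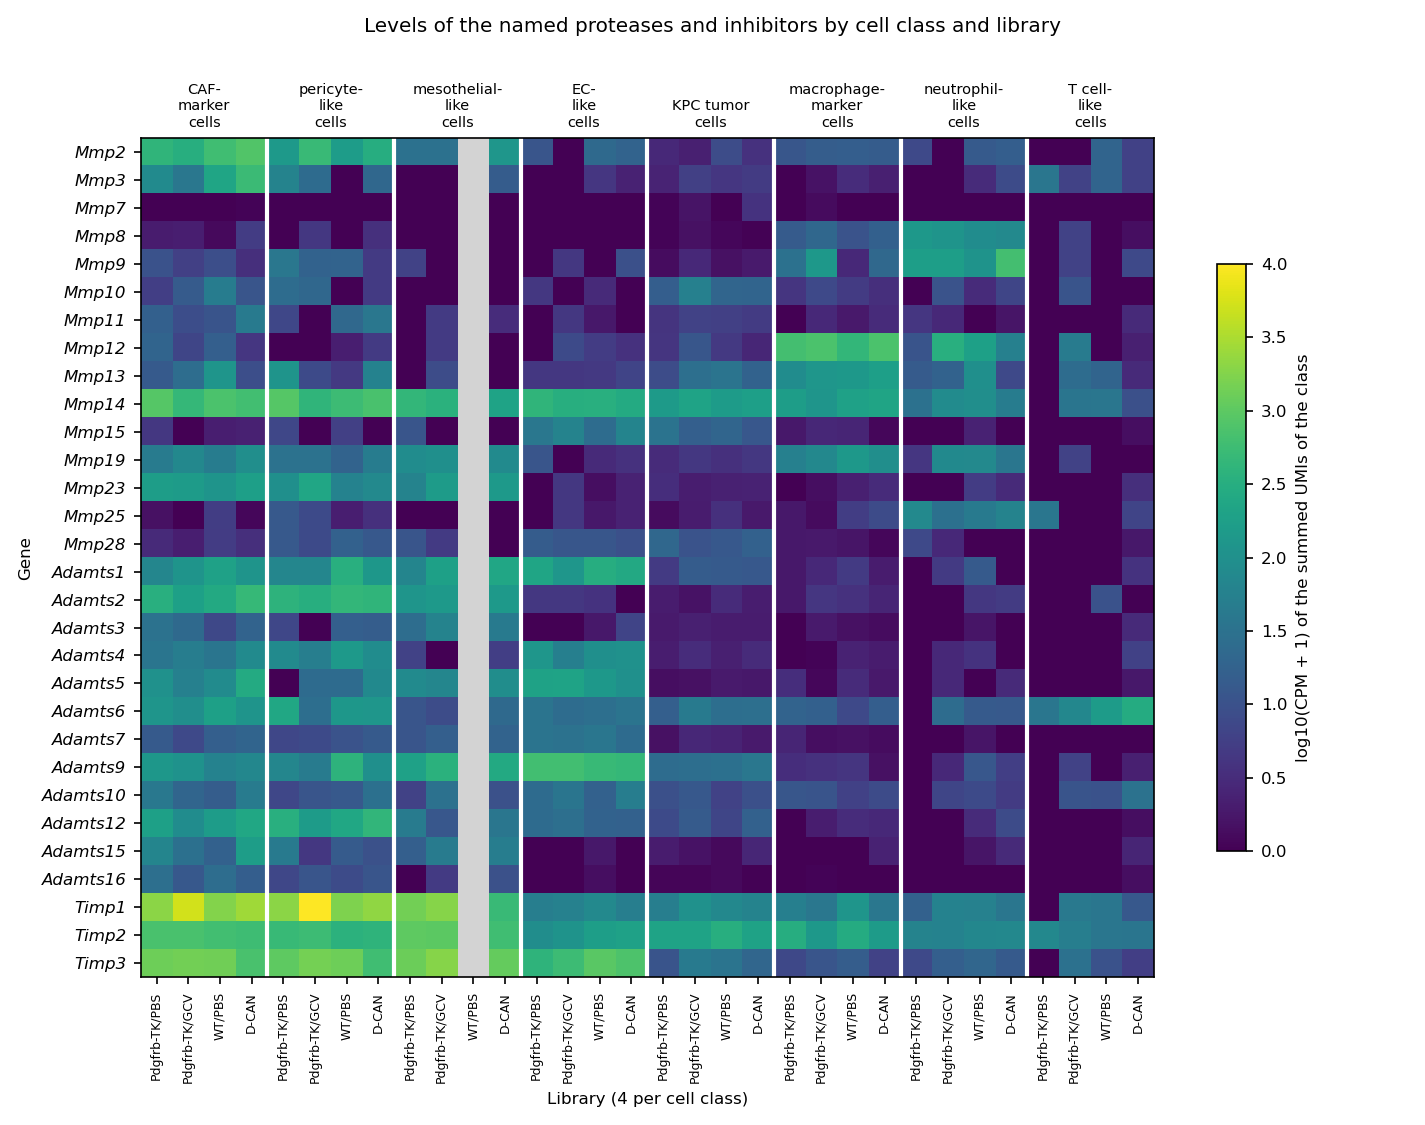
Levels of the 30 named members (rows) as log10(CPM + 1) in 8 cell classes, each with 4 libraries (columns). WT/PBS held 0 mesothelial-like cells (grey). Timp1, Timp2 and Timp3 were bright in CAF-marker, pericyte-like and mesothelial-like cells, ADAMTS genes were bright in stromal and EC-like cells, and Mmp8, Mmp9 and Mmp12 were bright in myeloid classes.

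The ADAMTS proteases were mostly highest in EC-like and stromal cells. Of the 27 members with at least 50 UMIs in their highest class, 7 were highest in EC-like cells, and of these Mmp15 was the only MMP. In EC-like cells Adamts9, a proteoglycan-cleaving enzyme, had 619.5 CPM in Pdgfrb-TK/PBS, 606 in Pdgfrb-TK/GCV, 491 in WT/PBS and 459.9 in D-CAN, above mesothelial-like cells in every library that had both (193 to 353 CPM). Adamts1, a versicanase with anti-angiogenic activity, had 225 CPM in Pdgfrb-TK/PBS, 123 in Pdgfrb-TK/GCV, 313 in WT/PBS and 263 in D-CAN in these cells, and CAF-marker cells had 67.5 to 193 CPM. The aggrecanases were shared with the stroma. In EC-like cells Adamts4 had 126 CPM in Pdgfrb-TK/PBS, 52.8 in Pdgfrb-TK/GCV, 97.8 in WT/PBS and 104 in D-CAN, Adamts5 had 204 CPM in Pdgfrb-TK/PBS, 208 in Pdgfrb-TK/GCV, 135 in WT/PBS and 101 in D-CAN, and both overlapped the range of CAF-marker cells (34.9 to 81.3 and 55.1 to 278 CPM). Adamts7, which cleaves COMP, was highest in EC-like cells in all 4 libraries (34.0 CPM in Pdgfrb-TK/PBS, 31.7 in Pdgfrb-TK/GCV, 36.3 in WT/PBS and 23.6 in D-CAN). In EC-like cells Adamts10, a fibrillin-binding member, had 23.8 CPM in Pdgfrb-TK/PBS, 35.2 in Pdgfrb-TK/GCV, 16.7 in WT/PBS and 48.6 in D-CAN, with CAF-marker cells at 14.3 to 45.0 CPM.

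Adamts2, Adamts12, Adamts15 and Adamts16 were highest in stromal classes. In pericyte-like cells Adamts2, which removes the amino-terminal propeptide of fibrillar procollagens, had 381 CPM in Pdgfrb-TK/PBS, 320.5 in Pdgfrb-TK/GCV, 438 in WT/PBS and 419 in D-CAN, and CAF-marker cells overlapped at 187 to 485 CPM. Adamts12, a relative of Adamts7, was above CAF-marker cells in the pericyte-like cells of all 4 libraries, at 338 CPM in Pdgfrb-TK/PBS, 157 in Pdgfrb-TK/GCV, 240.3 in WT/PBS and 424 in D-CAN. Adamts15, a versicanase, and Adamts16 were highest in CAF-marker cells in 3 and 4 of the libraries. The first had 64.4 CPM in Pdgfrb-TK/PBS, 29.1 in Pdgfrb-TK/GCV, 16.2 in WT/PBS and 165 in D-CAN, so that D-CAN and WT/PBS lay furthest apart. The second had 28.2 CPM in Pdgfrb-TK/PBS, 11.8 in Pdgfrb-TK/GCV, 26.3 in WT/PBS and 14.7 in D-CAN. Adamts3, a further procollagen enzyme, had 40 UMIs in mesothelial-like cells, and in CAF-marker cells it was at 30.7 CPM in Pdgfrb-TK/PBS, 22.035 in Pdgfrb-TK/GCV, 6.39 in WT/PBS and 17.6 in D-CAN. Adamts6, a relative of Adamts10, was the 1 member of these 27 whose highest class, by the mean of the libraries, was T cell-like cells. They had 35.8 CPM in Pdgfrb-TK/PBS, 71.0 in Pdgfrb-TK/GCV, 156 in WT/PBS and 291 in D-CAN, and there were 13, 70, 31 and 543 of them in that order, so this rank held in 1 of 4 libraries and rests on few cells elsewhere. In D-CAN, 245 of these 543 cells held its 715 UMIs, and the 5% of cells with most held 35.9% of them. Macrophage markers in the T cell-like cells of D-CAN summed to 120.2 CPM where Adamts6 was found and 170.0 CPM where it was not. This cannot show whether RNA of other classes took part, since macrophage-marker cells held 309 of the 20194 Adamts6 UMIs and KPC tumor cells held 56.0%. Tumor and stromal markers were not compared in this way. Pericyte-like (27.3 to 239.7 CPM) and CAF-marker cells (92.5 to 186 CPM) overlapped the T cell-like range.

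The inhibitors were most abundant in stroma. Timp1, a soluble inhibitor of most MMPs, had 2037 CPM in Pdgfrb-TK/PBS, 5297 in Pdgfrb-TK/GCV, 1829.7 in WT/PBS and 2644 in D-CAN in CAF-marker cells. In pericyte-like cells, of which Pdgfrb-TK/GCV held 19, it had 2004 CPM in Pdgfrb-TK/PBS, 11004 in Pdgfrb-TK/GCV, 1657 in WT/PBS and 2200.0 in D-CAN. Pdgfrb-TK/GCV was the highest library in both classes. CAF markers summed to 13619.5 CPM in pericyte-like cells of WT/PBS with a Timp1 UMI and to 2510 CPM in those without. These sums were 11989 and 2237 CPM in Pdgfrb-TK/PBS and 20393.5 and 7431 CPM in D-CAN, while Pdgfrb-TK/GCV had 1 cell without Timp1. In the 19 pericyte-like cells of Pdgfrb-TK/GCV, the single marker Ndufa4l2 gave 1176 of the 1875 CPM of summed pericyte markers. Whether these cells were pericytes was not tested. The part of CAF RNA in the Timp1 level of pericyte-like cells was not tested. Timp2, which inhibits MMPs and helps Mmp14 to activate Mmp2, had 1017 CPM in Pdgfrb-TK/PBS, 975 in Pdgfrb-TK/GCV and 584 in D-CAN in mesothelial-like cells, CAF-marker cells had 565 to 717 CPM, and KPC tumor cells held 73.1% of its UMIs at 199 to 321 CPM. Timp3, which binds to the matrix and also inhibits ADAMTS proteases, had 1246 CPM in Pdgfrb-TK/PBS, 1875 in Pdgfrb-TK/GCV and 1129.5 in D-CAN in mesothelial-like cells, a range that overlapped CAF-marker cells (720.2 to 1431 CPM). Timp4 had 56 UMIs, 26 of them in EC-like cells. Timp1, Timp3 and Timp4 overlap the synapsin genes Syn1, Syn3 and Syn2 on the opposite strand.

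The PBS libraries of the 2 host strains already differed in these genes. In CAF-marker cells, 4 of the 25 members that passed the count filter were at least 2-fold higher in Pdgfrb-TK/PBS than in WT/PBS (11.9% of all genes that passed) and 4 were at least 2-fold lower (7.6% of all genes). The higher ones were Adamts3, Adamts9, Adamts10 and Adamts15, and the lower ones were Mmp3, Mmp10, Mmp13 and Adamts1. In KPC tumor cells, 0 of 11 were higher (5.76% of all genes) and 3 were lower (3.6%), namely Mmp13 at 0.221 (95% interval, 0.202 to 0.241) of the WT/PBS level, Adamts1 at 0.308 (95% interval, 0.271 to 0.350) and Timp3 at 0.289 (95% interval, 0.267 to 0.312). In macrophage-marker cells 3 of 12 were higher (14.6% of all genes) and 3 were lower (7.9%). Mmp9 there stood at 16.0 (95% interval, 8.01 to 34.5) times WT/PBS, on 39 against 11 UMIs. The untreated libraries thus lay 2-fold or more apart in members of all 3 classes, and the results below are also placed against both of them.

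**Figure D3:**
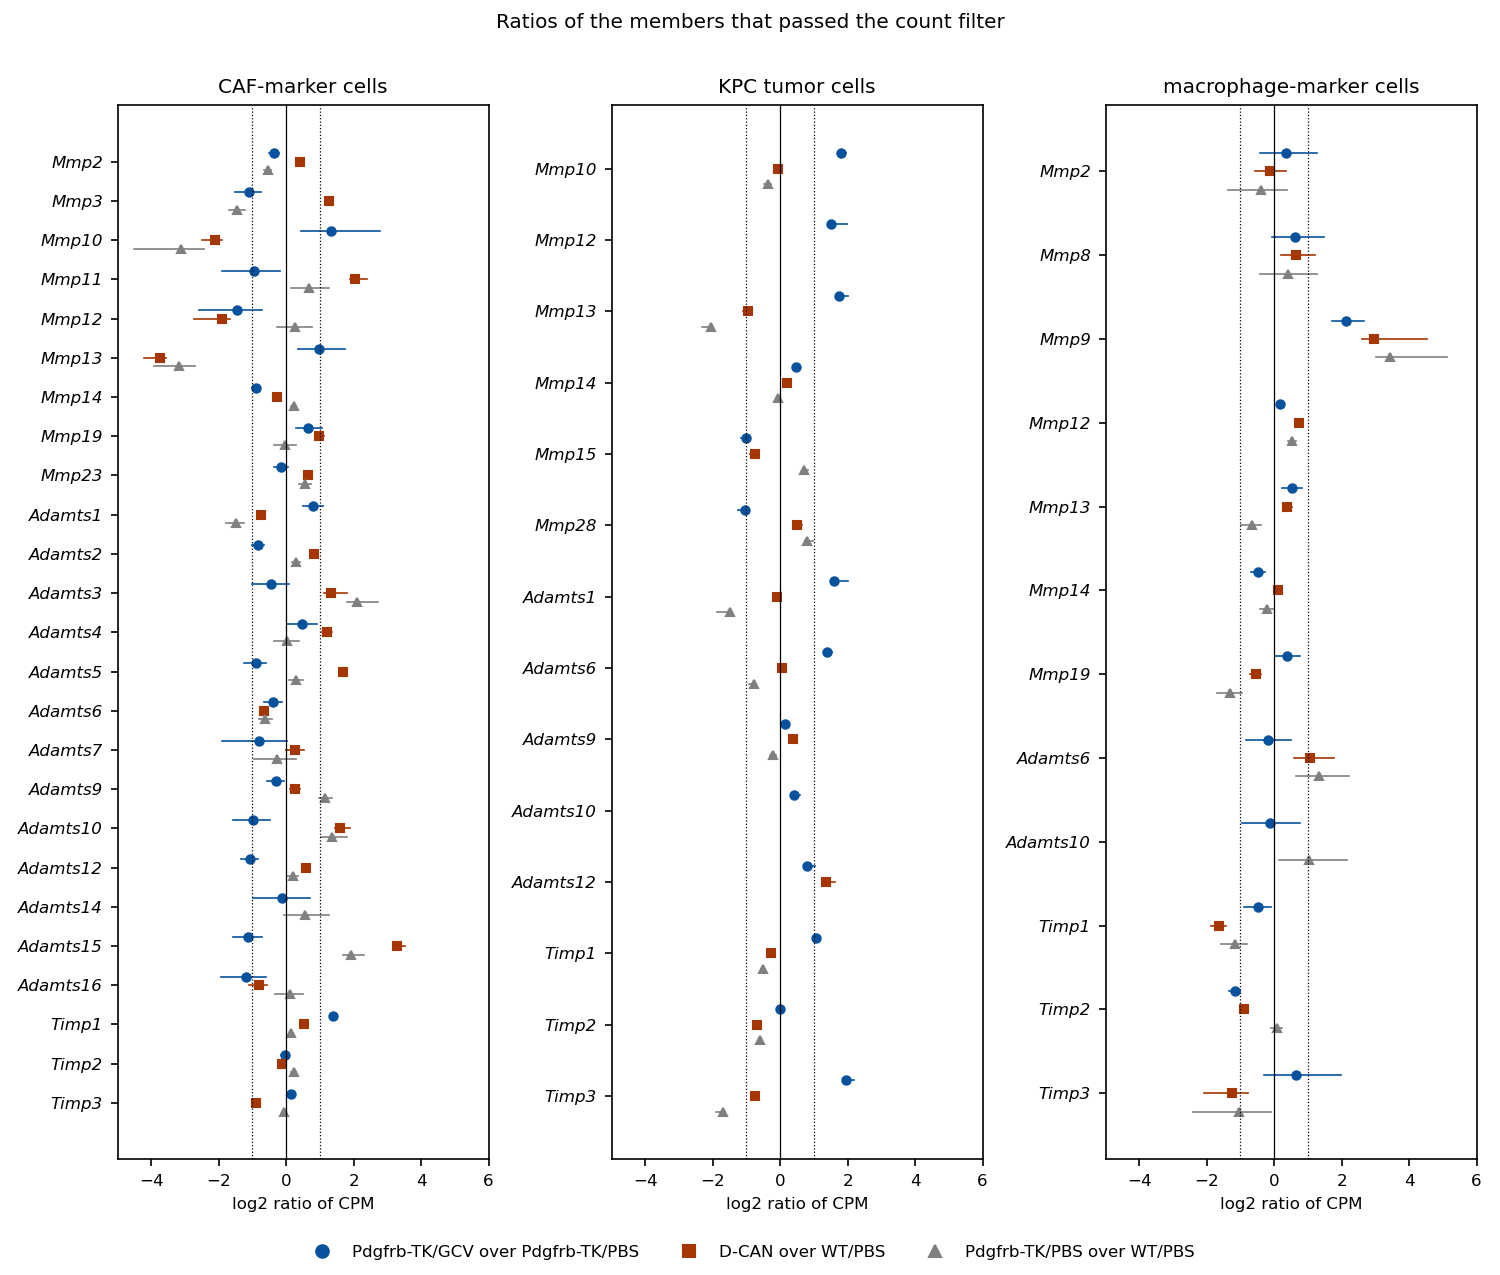
log2 ratios of CPM (pseudocount 1 CPM, symbols) with 95% counting intervals of the ratio without pseudocount (lines) for members that passed the count filter in 3 cell classes. Dotted lines mark 2-fold. In KPC tumor cells 7 GCV ratios (circles) lie at or right of the dotted line, and for Mmp13, Adamts1 and Timp3 the ratio of both PBS libraries (triangles) lies beyond it on the left.

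GCV, which targets Pdgfrb-expressing cells, was first compared with PBS in the remaining CAF-marker cells of Pdgfrb-TK mice. Timp1 had 5297 CPM in Pdgfrb-TK/GCV and 2037 CPM in Pdgfrb-TK/PBS, a ratio of 2.6 (95% interval, 2.51 to 2.69). WT/PBS (1829.7 CPM) and D-CAN (2644 CPM) were also lower than Pdgfrb-TK/GCV. Of 25 members that passed the filter, 2 were at least 2-fold higher (2.67% of 9399 genes) and 5 were at least 2-fold lower (6.26%). Their median log2 ratio was -0.38, and that of all genes was -0.12. Besides Timp1, Mmp10 was higher, on 33 against 9 UMIs (ratio 2.87, 95% interval 1.34 to 6.81), but below its 47.3 CPM in WT/PBS. Timp2 and Timp3, the other inhibitors with data, had ratios of 0.972 (95% interval, 0.906 to 1.04) and 1.11 (95% interval, 1.05 to 1.17).

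The 5 lower members were proteases. Mmp3 had 37.0 CPM against 80.5 CPM, a ratio of 0.459 (95% interval, 0.352 to 0.596), and Mmp12 had 15 against 36 UMIs (ratio 0.326, 95% interval 0.166 to 0.610), of which 4 and 25 lay in cells led by mesothelial markers. With a class gate at 5 UMIs per 10000, chosen after seeing the data, the log2 ratio of Mmp12 was -0.044 in place of -1.47. Adamts12 stood at 86.6 against 184 CPM, which was 0.471 (95% interval, 0.397 to 0.558) of the PBS level. Adamts15 (ratio 0.452, 95% interval 0.335 to 0.606) and Adamts16 (ratio 0.419, 95% interval 0.259 to 0.664) were lower by a like factor. Mmp3, Mmp12, Adamts12 and Adamts16 were also below WT/PBS, whereas Adamts15 (29.1 CPM) was above it (16.2 CPM). Below the threshold lay the log2 ratios of Mmp14 (-0.90), Adamts5 (-0.91), Adamts10 (-0.98) and, in the other direction, Mmp13 (0.97). Mmp2 was nearer to its control, with 322 against 413 CPM.

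Within CAF subsets the Timp1 ratio kept its direction. Subset ratios are followed by their 95% intervals in parentheses. Timp1 had a ratio of 4.25 (3.69 to 4.90) where iCAF markers led in 51 against 73 cells, 2.58 (2.48 to 2.69) where myCAF markers led in 111 against 205 cells and 2.51 (2.26 to 2.80) where mesothelial markers led in 39 against 48 cells. Without the 5% of cells richest in Timp1, CAF-marker cells still held 3983 CPM in Pdgfrb-TK/GCV and 1353 CPM in Pdgfrb-TK/PBS. Adamts15 was lower in iCAF-marker cells, at 0.272 (0.165 to 0.436) of PBS, and in myCAF-marker cells, at 0.371 (0.196 to 0.674), but not where mesothelial markers led, with 1.08 (0.534 to 2.31) on 25 against 13 UMIs. Mmp3 was likewise below its control in the first 2 subsets, at 0.425 (0.306 to 0.586) and 0.277 (0.131 to 0.544), and above it in the third, at 5.35 (1.29 to 47.4) on 19 against 2 UMIs. Mmp2 had a ratio of 0.477 (0.378 to 0.601) in iCAF-marker cells and 0.963 (0.852 to 1.09) in myCAF-marker cells. Adamts12 was lower in myCAF-marker cells, at 0.424 (0.349 to 0.514). Its intervals contained 1 in iCAF-marker cells, at 0.820 (0.476 to 1.42), and where mesothelial markers led, at 0.563 (0.221 to 1.43). Mmp10 rested on 21 UMIs in the mesothelial-marker subset of Pdgfrb-TK/GCV and had no UMI in that subset of Pdgfrb-TK/PBS, and its myCAF-marker ratio was 0.934 (0.320 to 2.78). Pericyte markers in all CAF-marker cells summed to 334 CPM in Pdgfrb-TK/GCV and 166 CPM in Pdgfrb-TK/PBS, while CAF markers summed to 11132 and 20726 CPM. Their part in these ratios was not tested.

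**Figure D4:**
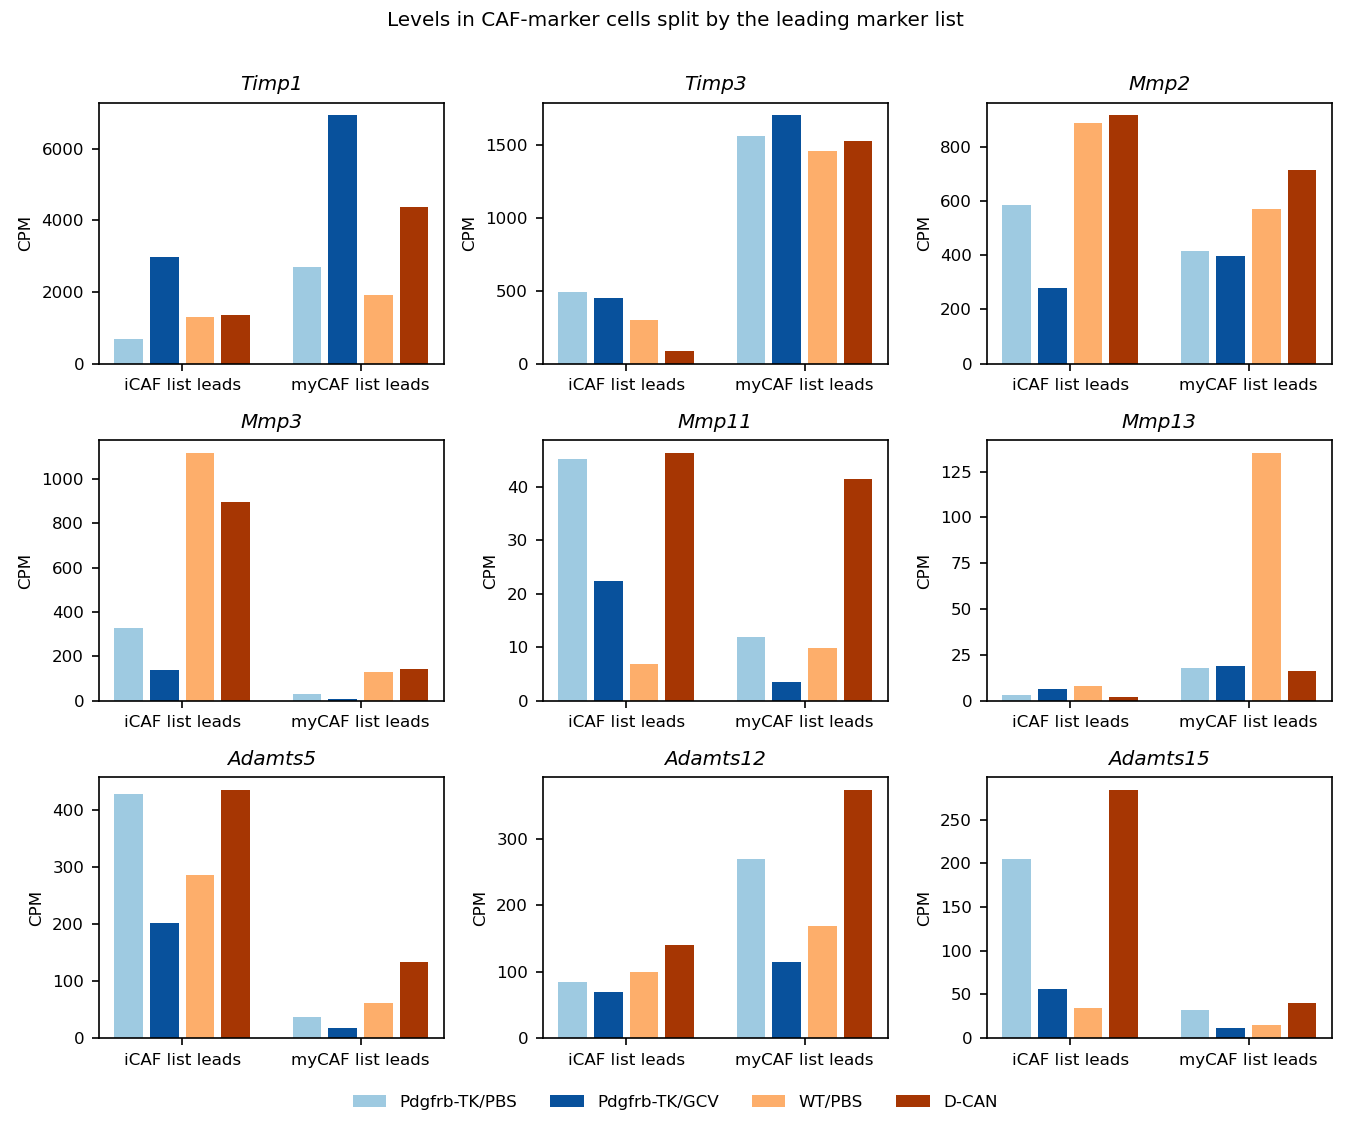
CPM of 9 members in CAF-marker cells in which iCAF or myCAF markers were the leading list. Bars are the 4 libraries. Timp1 was highest in Pdgfrb-TK/GCV in both subsets, Mmp3, Adamts5 and Adamts15 were higher in the iCAF-marker subset of each library, and Mmp13 reached 135 CPM in the myCAF-marker subset of WT/PBS.

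In KPC tumor cells the members that differed under GCV were mostly higher. Of 14 members that passed the filter, 7 were at least 2-fold higher than in Pdgfrb-TK/PBS (3.56% of 8868 genes) and 2 were at least 2-fold lower (1.94%). The median log2 ratio was 0.93 for the members and 0.09 for all genes. The stromelysin Mmp10 was at 53.4 CPM against 14.8 CPM (ratio 3.62, 95% interval 3.40 to 3.87), and its next highest library, WT/PBS, had 19.2 CPM. Mmp13 was at 27.5 CPM against 7.44 CPM (ratio 3.70, 95% interval 3.38 to 4.06), but WT/PBS exceeded both with 33.7 CPM. Thus Mmp10 in Pdgfrb-TK/GCV stood apart from the other 3 libraries and Mmp13 did not. Mmp3 stayed under the level filter here, at 1.53 to 4.80 CPM.

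The inhibitors and ADAMTS genes of KPC tumor cells showed the same dependence on the control. Timp3 was at 9.85 CPM in Pdgfrb-TK/PBS, 41.3 in Pdgfrb-TK/GCV, 34.1 in WT/PBS and 20.004 in D-CAN, so Pdgfrb-TK/GCV was 4.20 (95% interval, 3.88 to 4.54) times its own PBS library while WT/PBS lay between them. CAF markers summed to 77.0 CPM in the tumor cells of Pdgfrb-TK/GCV with a Timp3 UMI and to 27.6 CPM in those without. Over all tumor cells they were 40.7 CPM in Pdgfrb-TK/GCV and 65.4 CPM in Pdgfrb-TK/PBS, and their part in the Timp3 ratio was not tested. Adamts1 was at 3.84 CPM in Pdgfrb-TK/PBS, 13.6 in Pdgfrb-TK/GCV, 12.5 in WT/PBS and 11.6 in D-CAN, a ratio of 3.53 (95% interval, 3.11 to 4.02) on the same pattern. For Timp1 the levels were 50.5 CPM in Pdgfrb-TK/PBS, 106 in Pdgfrb-TK/GCV, 72.5 in WT/PBS and 60.1 in D-CAN and for Adamts6 15.4 CPM in Pdgfrb-TK/PBS, 42.0 in Pdgfrb-TK/GCV, 27.1 in WT/PBS and 27.9 in D-CAN. In both, Pdgfrb-TK/GCV was the highest library and Pdgfrb-TK/PBS the lowest, with ratios of 2.10 (95% interval, 2.02 to 2.18) and 2.73 (95% interval, 2.56 to 2.92). One tumor cell of Pdgfrb-TK/GCV held 397 of its 10775 Timp1 UMIs. Without the 5% of tumor cells richest in Timp1, the levels were 61.8 CPM in Pdgfrb-TK/GCV and 31.5 CPM in Pdgfrb-TK/PBS. The part of CAF RNA in the Timp1 ratio was not tested. The 2 lower members, Mmp15 (ratio 0.475, 95% interval 0.446 to 0.507) and Mmp28 (ratio 0.458, 95% interval 0.423 to 0.496), were below WT/PBS by less, at 15.4 against 19.4 CPM for Mmp15 and 9.59 against 11.6 CPM for Mmp28. Mmp14 had 1.39 (95% interval, 1.36 to 1.42) and Timp2 0.991 (95% interval, 0.971 to 1.01).

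Mmp10 was found in a minority of tumor cells. Mmp10 UMIs were found in 15.7% of KPC tumor cells in Pdgfrb-TK/GCV and in 3.84% in Pdgfrb-TK/PBS, at median depths of 11431 and 7485 UMIs per cell. After thinning each cell to 2000 UMIs, which left 5947 and 6449 cells, the shares were 5.89% (95% interval, 5.30 to 6.51) and 1.64% (1.35 to 1.98). B cell-like cells, which should lack the gene, had unthinned shares of 3.07% and 2.86% at median depths of 1882 and 1019 UMIs. These were shares of 163 and 35 cells, and the class had 6 Mmp10 UMIs over all libraries. Unthinned and on so few cells, they cannot set a background for the thinned share of Pdgfrb-TK/PBS tumor cells, 1.64%. Without thinning, 295 tumor cells of Pdgfrb-TK/PBS held 1125 Mmp10 UMIs, with up to 59 in 1 cell. In Pdgfrb-TK/GCV the 5% of tumor cells richest in Mmp10 held 79.5% of its UMIs, and no cell held more than 2.30%. For Mmp13 the richest cell held 9.72% of 2799 UMIs. CAF markers in tumor cells with Mmp10 summed to 44.2 CPM in Pdgfrb-TK/GCV and in those without it to 39.6 CPM. Mmp12 differed in this respect. Its ratio in KPC tumor cells was 3.44 (95% interval, 2.99 to 3.97) at 10.9 against 3.17 CPM, and macrophage markers in these cells moved with it, at 92.3 against 29.2 CPM. Tumor cells with an Mmp12 UMI had 159.8 CPM of macrophage markers in Pdgfrb-TK/GCV and those without had 84.8 CPM. The part of macrophage RNA in this ratio was not tested.

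**Figure D5:**
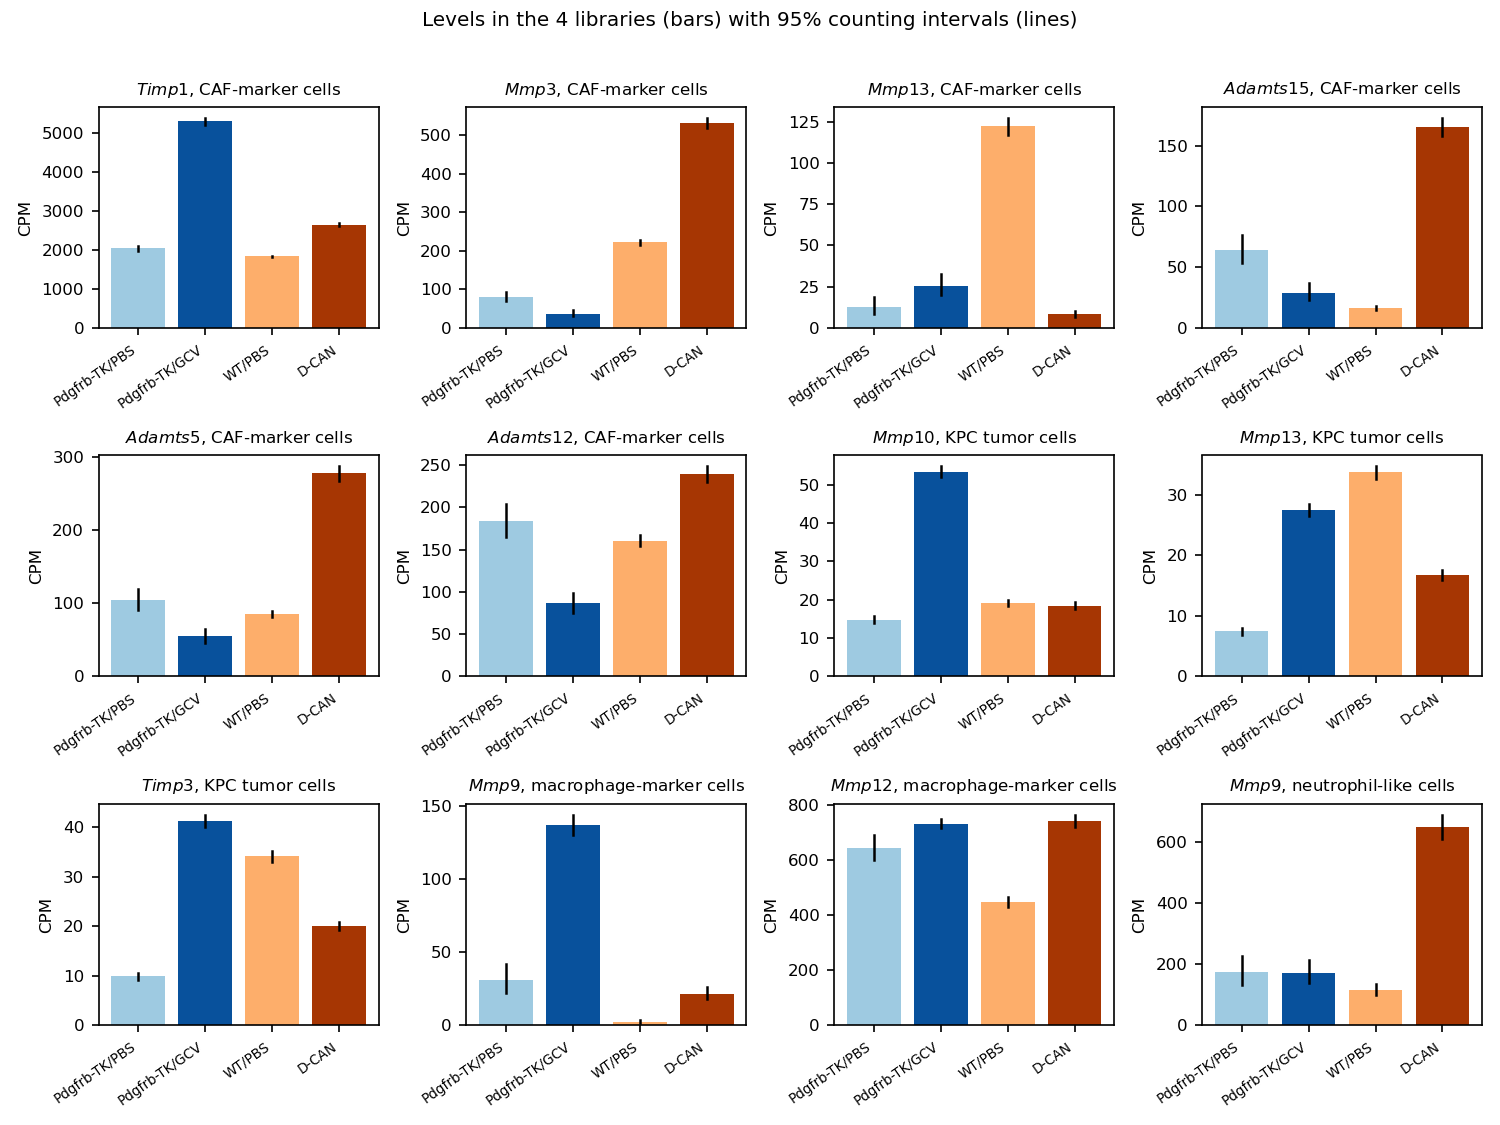
CPM (bars) with exact 95% Poisson intervals (lines) of members the comparisons turn on, in the class named above each panel. Axes start at 0 and differ between panels. Timp1 in CAF-marker cells, Mmp10 in KPC tumor cells and Mmp9 in macrophage-marker cells were highest in Pdgfrb-TK/GCV, Adamts15 in CAF-marker cells and Mmp9 in neutrophil-like cells were highest in D-CAN, and Mmp13 was highest in WT/PBS in CAF-marker cells and KPC tumor cells.

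In macrophage-marker cells, 1 of 12 members was at least 2-fold higher under GCV (4.05% of 8784 genes) and 1 was at least 2-fold lower (2.61%). The higher one was Mmp9, with 30.5 CPM in Pdgfrb-TK/PBS, 137 in Pdgfrb-TK/GCV, 1.91 in WT/PBS and 21.5 in D-CAN and a ratio of 4.47 (95% interval, 3.26 to 6.32). Its UMIs were in 108 of 1565 cells in Pdgfrb-TK/GCV, and the 5% of cells with most held 97.9% of them, so a small set of cells carried the level. Neutrophil markers, the list of the class with most Mmp9, summed to 453 CPM in the cells with Mmp9 and 439.5 CPM in those without, and over all these cells they were 312 CPM in Pdgfrb-TK/PBS, 441 in Pdgfrb-TK/GCV, 523 in WT/PBS and 478 in D-CAN. Their part in the Mmp9 ratio was not tested. The lower member was Timp2, at 306 CPM in Pdgfrb-TK/PBS, 135 in Pdgfrb-TK/GCV, 291 in WT/PBS and 157 in D-CAN, which put Pdgfrb-TK/GCV at 0.441 (95% interval, 0.394 to 0.494) of its PBS library. CAF markers in these cells summed to 45.3 and 87.7 CPM, and their part in the Timp2 ratio was not tested. Mmp12 was near its control (ratio 1.14, 95% interval 1.06 to 1.22), as was Mmp19 (ratio 1.31, 95% interval 1.02 to 1.69), and Mmp13 had 1.43 (95% interval, 1.18 to 1.76). The median log2 ratio of the members was 0.27 and that of all genes -0.08.

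In neutrophil-like cells, the intervals of Mmp8 and Mmp9 under GCV contained 1. Mmp8 had a ratio of 0.884 (95% interval, 0.584 to 1.35) and Mmp9 one of 0.992 (95% interval, 0.697 to 1.42), while Mmp25 was lower on 15 against 23 UMIs (ratio 0.378, 95% interval 0.183 to 0.756). Mmp12 and Mmp19, by contrast, had 174 and 40 UMIs in Pdgfrb-TK/GCV against 3 and 1, with ratios of 33.6 (95% interval, 11.3 to 165) and 23.2 (95% interval, 3.93 to 938). A single cell held 109 of the 174 Mmp12 UMIs. Neutrophil markers over all these cells summed to 62408.5 CPM in Pdgfrb-TK/PBS and 22581 CPM in Pdgfrb-TK/GCV. Their part in the Mmp8, Mmp9 and Mmp25 ratios was not tested. Macrophage markers in neutrophil-like cells were 113 CPM in Pdgfrb-TK/PBS, 419 in Pdgfrb-TK/GCV, 229.8 in WT/PBS and 299.6 in D-CAN. The cells with Mmp12 UMIs had 12129 CPM of neutrophil markers in Pdgfrb-TK/GCV against 24440.4 CPM in the others, and the corresponding levels in WT/PBS were 3544 and 52575 CPM. The cells with Mmp12 thus held less of the markers that define this class. Macrophage markers summed to 409 CPM in the Pdgfrb-TK/GCV cells with Mmp12 and 420 CPM in the others. In WT/PBS they were 369 and 211 CPM, and the part of macrophage RNA was not tested.

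D-CAN, the peptide directed at adipose stromal cells, was compared with WT/PBS. In CAF-marker cells, 7 of 24 members were at least 2-fold higher (12.1% of 9385 genes) and 3 were at least 2-fold lower (7.04%). Of the higher ones 5 were ADAMTS genes and 2 were MMPs. Adamts15 had the highest ratio, with 165 CPM in D-CAN against 16.2 CPM, a ratio of 10.2 (95% interval, 8.99 to 11.6). The aggrecanase Adamts5 had 278 against 85.2 CPM (ratio 3.26, 95% interval 3.06 to 3.47) and Adamts4 had 81.3 against 34.9 CPM (ratio 2.33, 95% interval 2.10 to 2.59). Adamts10 (ratio 3.15, 95% interval 2.70 to 3.69) and Adamts3 (ratio 2.75, 95% interval 2.17 to 3.51) completed the ADAMTS group. Except Adamts3, each was also above Pdgfrb-TK/PBS.

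The MMPs of CAF-marker cells went both ways. Mmp3 was higher, at 531 CPM in D-CAN against 222 CPM (ratio 2.40, 95% interval 2.30 to 2.50), and so was Mmp11, a stromelysin activated inside the cell by furin, at 43.2 against 9.76 CPM (ratio 4.43, 95% interval 3.71 to 5.31). Mmp13 was lower, with 88 against 2140 UMIs and a ratio of 0.0678 (95% interval, 0.0542 to 0.0840), as were Mmp10 (ratio 0.217, 95% interval 0.176 to 0.265) and Mmp12 (ratio 0.219, 95% interval 0.149 to 0.312). WT/PBS was the library that stood apart for Mmp13, since this class had 12.6 CPM in Pdgfrb-TK/PBS and 25.6 CPM in Pdgfrb-TK/GCV. Mmp10 in D-CAN (10.3 CPM) was above Pdgfrb-TK/PBS (4.53 CPM). A single WT/PBS cell held 17.6% of its Mmp13 UMIs. Mmp3 and its neighbors Mmp10, Mmp12 and Mmp13, which lie on both sides of it on chromosome 9, were thus on opposite sides of their control. Macrophage markers, those of the class highest in Mmp12, summed to 85.7 CPM in CAF-marker cells of D-CAN and 119 CPM in those of WT/PBS. Mmp2 had a ratio of 1.34 (95% interval, 1.30 to 1.38), Mmp14 of 0.824 (95% interval, 0.799 to 0.849), Timp1 of 1.45 (95% interval, 1.42 to 1.47), Timp2 of 0.918 (95% interval, 0.890 to 0.948) and Timp3 of 0.539 (95% interval, 0.525 to 0.553). The median log2 ratio was 0.48 for the members and 0.11 for all genes.

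The makeup of the CAF-marker cells moved with several of these ratios, since iCAF markers led in 51.0% of them in D-CAN and 9.03% in WT/PBS. Mmp3 was 1118 CPM in iCAF-marker cells and 130.3 CPM in myCAF-marker cells of WT/PBS, and within these subsets the D-CAN ratio was 0.802 (0.758 to 0.850) and 1.11 (1.01 to 1.21). The 2.40-fold ratio over all CAF-marker cells was therefore not found within a subset. Timp3 behaved alike in the myCAF-marker subset, where its ratio was 1.05 (1.02 to 1.08), but was 0.291 (0.254 to 0.332) in the iCAF-marker subset. Mmp11 was higher within both, at 6.68 (3.57 to 14.1) and 4.17 (3.35 to 5.19). Adamts15 was at 8.36 (6.29 to 11.4) and 2.81 (2.29 to 3.43), Adamts5 at 1.52 (1.37 to 1.69) and 2.16 (1.95 to 2.40), and Adamts10 at 14.5 (6.12 to 44.9) and 2.84 (2.33 to 3.45). These 3 ADAMTS genes were above their control in both subsets, Adamts5 by under 2-fold in iCAF-marker cells. Mmp13 remained lower in myCAF-marker cells, at 0.120 (0.0938 to 0.152), on 16.3 against 135 CPM. Timp1 was 2.30 (2.25 to 2.34) in myCAF-marker cells and 1.04 (0.990 to 1.10) in iCAF-marker cells. Over all CAF-marker cells, the 5% richest in Timp1 held 59.2% of its UMIs under D-CAN, against 36.2% for WT/PBS. Leaving these cells out put D-CAN at 1279 CPM, beside a WT/PBS level of 1304 CPM. The higher Timp1 level of D-CAN over all CAF-marker cells was thus not found without its richest cells. Within the subsets this was not tested.

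In KPC tumor cells under D-CAN, the counts of members were near the shares of all genes. Of 12 members, 1 was at least 2-fold higher (9.05% of 8993 genes) and 0 were at least 2-fold lower (2.08%). With median-of-ratios scaling in place of CPM these counts were 1 and 1. Adamts12 was the higher member, at 6.92 CPM in Pdgfrb-TK/PBS, 12.8 in Pdgfrb-TK/GCV, 5.91 in WT/PBS and 16.6 in D-CAN, with a ratio of 2.82 (95% interval, 2.57 to 3.08). Mmp10, which was higher under GCV, had a ratio of 0.963 (95% interval, 0.904 to 1.03) here, and Mmp13 had 0.499 (95% interval, 0.470 to 0.528), just short of the threshold on the log2 scale (-0.96). The inhibitors were all below WT/PBS, with Timp1 at 0.829 (95% interval, 0.802 to 0.857), Timp2 at 0.620 (95% interval, 0.609 to 0.631) and Timp3 at 0.587 (95% interval, 0.555 to 0.620). Timp2 in WT/PBS (321 CPM) was above the other 3 libraries (199 to 210.3 CPM). The median log2 ratio of the members was -0.08 and that of all genes 0.16.

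Macrophage-marker cells had 2 of 11 members at least 2-fold higher in D-CAN (11.8% of 8541 genes) and 2 at least 2-fold lower (4.65%), or 1 and 3 with median-of-ratios scaling. Mmp9 and Adamts6 were the higher ones, on 123 against 11 and 85 against 38 UMIs, with ratios of 11.2 (95% interval, 6.05 to 23.0) and 2.24 (95% interval, 1.51 to 3.38). With the gate at 5 UMIs per 10000 their log2 ratios were 0.93 in place of 2.95 and 0.98 in place of 1.06, so that neither reached 2-fold. Both were below the level of Pdgfrb-TK/PBS, which had 30.5 and 18.0 CPM. Timp1 was lower, at 37.7 against 119 CPM (ratio 0.317, 95% interval 0.270 to 0.369), as was Timp3 (ratio 0.376, 95% interval 0.239 to 0.579), and Timp2 had 0.541 (95% interval, 0.498 to 0.587). CAF markers in macrophage-marker cells were lower too, at 159 against 232 CPM, and their part in the Timp1 and Timp3 ratios was not tested. Mmp12 had 1.66 (95% interval, 1.58 to 1.74) and Mmp19 0.684 (95% interval, 0.612 to 0.764).

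In neutrophil-like cells Mmp9 was higher in D-CAN than in any other library. It had 982 against 164 UMIs and a ratio of 5.67 (95% interval, 4.80 to 6.74), and it was found in 327 of 588 cells in D-CAN and 76 of 391 cells in WT/PBS at median depths of 2052 and 2043 UMIs per cell. T cell-like cells, which should lack Mmp9, had a UMI in 1.84% of cells in D-CAN at a median of 3613 UMIs. After thinning to 2000 UMIs the shares of neutrophil-like cells were 60.4% (95% interval, 54.7 to 65.8) of 313 cells and 17.3% (12.4 to 23.3) of 202 cells. The other granule protease, Mmp8, had 0.894 (95% interval, 0.687 to 1.16) and Mmp25 1.39 (95% interval, 0.996 to 1.95). Summed neutrophil markers were 66810.2 against 46659 CPM, most of it from S100a8 and S100a9. Of the other markers of the list, Cxcr2 was at 294 against 57.1 CPM and Hdc at 1071 against 169.9. Il1r2 was at 2199.8 against 469 CPM and Csf3r at 1032 against 323. Retnlg was nearer to its control, at 1771 against 1265 CPM, and Clec4d was lower, at 814 against 1237. The part of these markers in the Mmp9 ratio was not tested. Mmp12 (ratio 0.294, 95% interval 0.227 to 0.378) and Mmp13 (ratio 0.0667, 95% interval 0.0313 to 0.126) were lower in D-CAN, and 24 cells held the Mmp12 UMIs of WT/PBS.

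Fixed lists of partner genes were counted in the same way. Of the matrix substrates, 3 of 12 that passed the filter were lower and 0 higher in CAF-marker cells under GCV (6.26% and 2.67% of all genes), with elastin (Eln) at 0.256-fold (95% interval, 0.209 to 0.312) and the fibrillins Fbn1 at 0.421-fold (95% interval, 0.385 to 0.459) and Fbn2 at 0.142-fold (95% interval, 0.113 to 0.177). In KPC tumor cells, 3 of 9 were higher under GCV and 0 lower (3.56% and 1.94% of all genes), namely fibronectin (Fn1) at 2.73-fold (95% interval, 2.69 to 2.76), versican (Vcan), a substrate of Adamts1 and its relatives, at 4.24-fold (95% interval, 3.92 to 4.59), and tenascin C (Tnc) at 5.03-fold (95% interval, 4.75 to 5.33). In the same cells, 3 of 9 were lower and 0 higher in Pdgfrb-TK/PBS against WT/PBS (3.6% of all genes lower). Under D-CAN the counts were the same (2.08%), and the 3 were Col1a1, Col1a2 and Col3a1 both times. They are also markers of the CAF class. CAF markers summed to 65.4 CPM in KPC tumor cells of Pdgfrb-TK/PBS, 173 in WT/PBS and 72.2 in D-CAN. The part of CAF RNA in these collagen ratios was not tested. Under D-CAN, 0 of 13 substrates were 2-fold apart in CAF-marker cells (12.1% of all genes higher and 7.04% lower). Col1a1, Col1a2 and Col3a1 are among these substrates, and this class was gated on them. Of the MMP regulators, thrombospondin 2 (Thbs2), which carries Mmp2 to its clearance receptor, was lower in CAF-marker cells under both treatments. It was at 0.270-fold (95% interval, 0.224 to 0.324) under GCV and 0.228-fold (95% interval, 0.218 to 0.238) under D-CAN. Thbs2 is also on the myCAF list, which led in 81.6% of CAF-marker cells in WT/PBS and 30.9% in D-CAN. The part of this makeup in the Thbs2 ratio was not tested. The broad protease inhibitor alpha-2-macroglobulin (A2m) was at 17.2-fold (95% interval, 14.1 to 21.2) in CAF-marker cells under D-CAN, with 104 against 6.05 CPM, and was the 1 regulator of 14 that was higher there, against 3 that were lower (12.1% and 7.04% of all genes).

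Inducers of MMP genes, a list of cytokines and transcription factors, were higher in 3 of 9 cases in CAF-marker cells under GCV and lower in 0 (2.67% and 6.26% of all genes). They were Il6 at 6.87-fold (95% interval, 4.64 to 10.5), the AP-1 subunit Fosl1 at 2.84-fold (95% interval, 1.84 to 4.52) and its partner Jun at 2.11-fold (95% interval, 1.92 to 2.31). In macrophage-marker cells 5 of 12 were higher (4.05% of all genes), and in KPC tumor cells 2 of 9 (3.56%), with Jun at 3.36-fold (95% interval, 2.98 to 3.79) and 2.37-fold (95% interval, 2.31 to 2.42). Under D-CAN, 0 of 9 were higher and 3 were lower in CAF-marker cells (12.1% and 7.04% of all genes), Fosl1 among them at 0.379-fold (95% interval, 0.320 to 0.448). Between both PBS libraries, 6 of 9 inducers were at least 2-fold lower in the CAF-marker cells of Pdgfrb-TK/PBS (7.6% of all genes). In its macrophage-marker cells 5 of 12 were lower (7.9% of all genes) and 0 higher, and in its KPC tumor cells 2 of 8 were lower (3.6%) and 0 higher. The GCV counts of inducers were thus taken against a PBS library that was low in several of them. Among the ADAMTS-like genes, 2 of 4 were higher in CAF-marker cells under D-CAN (12.1% of all genes), and Adamtsl1, one of them, was at 3.47-fold (95% interval, 3.27 to 3.68) in CAF-marker cells under D-CAN, and of the membrane ADAM proteases Adam12 was at 0.460-fold (95% interval, 0.403 to 0.526) in CAF-marker cells and 3.30-fold (95% interval, 2.94 to 3.71) in KPC tumor cells under GCV. Of the astacin proteases and helpers, 1 of 4 was lower in CAF-marker cells under each treatment (6.26% of all genes under GCV and 7.04% under D-CAN), the procollagen-processing relative Tll1.

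The remaining 15 members were Mmp1b, Mmp16, Mmp17, Mmp20, Mmp21, Mmp24, Mmp27, Adamts8, Adamts13, Adamts14, Adamts17, Adamts18, Adamts19, Adamts20 and Timp4. They had 9 to 1435 UMIs in all cells, with a median of 95. Adamts14, a procollagen enzyme, had the most, and 60.0% of its UMIs were in KPC tumor cells at 0.879 to 3.50 CPM. By level it was highest in mesothelial-like cells, at a mean of 16.5 CPM on 15 UMIs. KPC tumor cells, the largest class, held 605 of 807 UMIs of Adamts17 and 429 of 463 of the membrane-type enzyme Mmp24. By level Adamts17 was highest in pericyte-like cells (mean 4.84 CPM, on 10 UMIs), followed by CAF-marker cells (2.78 CPM). Mmp16 was mostly in CAF-marker cells (94 of 126 UMIs), and so was Adamts8 (119 of 200). Differences between conditions were not described at these counts.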

How the data were processed

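Tumor cell suspensions pooled by treatment were captured with Chromium Single Cell 3' chemistry, 1 library for each of 4 conditions. Per the file headers the authors ran Cell Ranger 7.0.0, while the methods name an earlier version. They deposited UMI counts per gene and cell on mm10, as whole numbers, and whether intronic reads or antisense reads were counted is not given in the sources used here.

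Cells with at least 200 detected genes were kept. The class markers were fixed and the gate was set after the marker distributions were seen. A cell passed a class with at least 2 of its markers, 3 marker UMIs and 10 marker UMIs per 10000. A cell that passed 1 class entered it, with no further condition. A cell that passed several entered the one with a level at least 4 times the next. Levels were divided here by the median level of cells that passed the class alone. Pericyte markers took precedence over CAF markers, mesothelial over CAF and tumor markers, and dendritic over macrophage markers. Cells that passed several classes and met none of these rules were left out of the comparisons, and no doublet caller was run. UMI counts were summed per class and library and divided by the class total. Ratios carry exact 95% intervals from the binomial distribution of the UMIs of both libraries, levels carry exact Poisson intervals, and shares carry Clopper-Pearson intervals, all of which cover counting error only. With 1 library per condition no test was run.

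Members with at least 50 UMIs in their highest class, among classes with at least 50 cells, or at least 2-fold apart in CAF-marker, KPC tumor or macrophage-marker cells with an interval that leaves out 1, were given in full (30 of 45). The members and gene lists were chosen with earlier results of these data known. Alternatives were another scaling, pseudocounts, filters, the PBS library of the other strain, thinning and the gate. Python 3.11.15, numpy 2.4.6, pandas 2.3.3, scipy 1.17.1 and matplotlib 3.10.9 were used, and the calculation of ratios was checked on simulated counts.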

Additional observations from a re-analysis of the deposited data

How the results depend on the processing

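For 33 member ratios of at least 2-fold in 12 alternative settings (396 values), 348 kept their direction and 2-fold size, 40 kept the direction but were under 2-fold or no longer passed the count filter and 8 reversed. These totals include settings that could not fail. Without a filter but 1 UMI and with a pseudocount of 0.1 CPM, all 33 were bound to stay. A floor of 50 UMIs could only drop a ratio, not change it. The PBS library of the other strain changed most, since 15 of 33 ratios kept direction and 2-fold size. Of the others, 11 became weaker in that sense and 7 reversed. With the PBS library of the other strain as control, the log2 ratio became -1.79 for Mmp10 and 0.81 for Adamts15 in CAF-marker cells under GCV, -0.28 for Mmp13 in KPC tumor cells under GCV, 1.03 for Mmp10 and -0.77 for Adamts3 in CAF-marker cells under D-CAN, and -0.49 for Mmp9 and -0.26 for Adamts6 in macrophage-marker cells under D-CAN. With a gate at 5 UMIs per 10000, Mmp10 in CAF-marker cells under GCV became -0.16. Under GCV, higher members in CAF-marker cells went from 2 to 1 with a pseudocount of 5 CPM, with at least 50 UMIs, with 1 more marker in the gate and with the gate at 5 UMIs per 10000, and lower ones from 5 to 8 without a filter but 1 UMI. Among KPC tumor cells under GCV, higher members went from 7 to 4 with the other PBS library, and lower ones from 2 to 0 with a pseudocount of 5 CPM, the other PBS library or a gate at 30 UMIs per 10000. In macrophage-marker cells under GCV, higher members went from 1 to 4 without a filter and to 3 with the other PBS library, and lower ones from 1 to 2 with either. Under D-CAN, lower members in CAF-marker cells went from 3 to 5 without a filter and to 1 with the other PBS library. For KPC tumor cells under D-CAN, higher members went from 1 to 0 with a pseudocount of 5 CPM and to 3 without a filter or with the other PBS library, and lower ones from 0 to 1 with median-of-ratios scaling, no filter, the other PBS library or thinning to 2000 UMIs, and to 2 with the gate at 30. In macrophage-marker cells under D-CAN, higher members went from 2 to 1 with median-of-ratios scaling, a pseudocount of 5 CPM or the other PBS library and to 0 with the gate at 5, and lower ones from 2 to 1 with a pseudocount of 5 CPM, to 5 without a filter and to 0 with the other PBS library. The cause of these differences was not tested. Both gate settings were chosen after seeing the data. Median-of-ratios scaling moved the median of all genes by -0.10 to 0.19 on the log2 scale. No paired analysis was possible because each condition has 1 library, and for the same reason no library could be left out. Members with few UMIs, pericyte-like cells and the 13 T cell-like cells of Pdgfrb-TK/PBS are limited by counts.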

Other observations

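Pericyte-like and EC-like cells were few, and their values stand apart from the comparisons above. In the 19 pericyte-like cells of Pdgfrb-TK/GCV, Timp1 was 5.49 (95% interval, 4.90 to 6.17) times the level in Pdgfrb-TK/PBS, on 3228 against 326 UMIs. The gelatinase Mmp2 was 3.47 (95% interval, 2.24 to 5.58) and Mmp23 2.39 (95% interval, 1.37 to 4.42) times the control, whereas Mmp14 was 0.469 (95% interval, 0.364 to 0.602) and Adamts12 0.464 (95% interval, 0.307 to 0.699). Pericyte markers in these cells summed to 1875 CPM in Pdgfrb-TK/GCV and 3743 CPM in Pdgfrb-TK/PBS, and CAF markers to 18225 and 10006 CPM. Of the pericyte list only Ndufa4l2 was higher, at 1176 against 695 CPM. Rgs5 was at 232 against 1352 CPM and Notch3 at 75.0 against 436 CPM. CAF markers in the CAF-marker class under GCV were lower than in these 19 cells, at 11132 CPM. Of the 19 cells, 11 lay under 1.5 times the gate level, and 10 of 39 did in Pdgfrb-TK/PBS. Whether the 19 cells were pericytes was not tested. The part of pericyte and CAF markers in these ratios was not tested.

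In pericyte-like cells of D-CAN, Adamts9 (ratio 0.257, 95% interval 0.198 to 0.331), Adamts1 (ratio 0.389, 95% interval 0.306 to 0.490) and Timp3 (ratio 0.439, 95% interval 0.393 to 0.490) were lower than in WT/PBS, and Adamts5 (ratio 3.28, 95% interval 1.95 to 5.75) was higher. CAF markers there summed to 18298 and 9560.1 CPM. In EC-like cells Adamts9 had ratios of 0.978 (95% interval, 0.789 to 1.21) under GCV and 0.937 (95% interval, 0.827 to 1.06) under D-CAN. Adamts4 in EC-like cells was lower under GCV on 15 against 37 UMIs (ratio 0.419, 95% interval 0.214 to 0.783), and Mmp15 (ratio 2.52, 95% interval 1.67 to 3.76) and Adamts10 (ratio 2.91, 95% interval 1.80 to 4.69) were higher under D-CAN.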
